A study of Mus musculus with 6 samples.

Results

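The mitochondrial genome transcripts were the 37 genes whose mouse symbol begins with mt-, taken from the 43346 gene IDs counted in each library. They were 13 protein genes, 2 rRNA genes and 22 tRNA genes, and all 37 were found in the tables. The libraries came from the liver of C57BL6 mice, 3 months old. The groups were 3 libraries labelled DKO, in which by the labels β-catenin (Ctnnb1) and γ-catenin (Jup) had been deleted together in hepatocytes, and 3 Control libraries. The sources used here do not give the driver of the deletion or the alleles of the Control mice. RNA came from whole liver, so cells other than hepatocytes contributed to every library. Whether those cells keep both catenins was not tested. The labels do not say that libraries of a group came from separate animals, so p-values measure the spread between libraries.

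The mitochondrial genome is a small circle present in many copies per cell, and hepatocytes are rich in it. It codes for subunits of respiratory complexes I, III and IV and of the ATP synthase (complex V), for the rRNAs of the mitochondrial ribosome and for the tRNAs that read its messages. Both strands are transcribed into long precursors, and the tRNAs that lie between the other genes are cut out, which frees the messages and rRNAs on either side. Every protein needed to copy, transcribe and cut this genome is coded in the nucleus.

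In DKO replicates 1, 2 and 3, 309731, 525037 and 1491237 reads were assigned to genes, against 12320487 to 15869639 in the Control libraries. These were 2.68% to 4.74% of all reads in DKO and 33.3% to 34.9% in Control. Ctnnb1 had 0, 52 and 65 counts in DKO and 2945, 2896 and 2650 in Control, and Jup had 6, 1 and 11 in DKO and 339, 270 and 196 in Control. Relative to scaled library size neither passed the test (edgeR's quasi-likelihood test, Benjamini-Hochberg adjusted p = 0.171 for Ctnnb1 and 0.0847 for Jup). All 8 hepatocyte markers were detected in both groups, and their summed level was 2195 to 45983 CPM (counts relative to the gene counts of the library) in DKO and 96775 to 111278 CPM in Control. Alb, the gene of serum albumin and one of these markers, had 289, 16159 and 4804 counts in DKO and 1216277, 948813 and 810882 in Control. Summed markers of cholangiocytes (141 to 326 CPM in DKO and 62.0 to 82.9 in Control) and of muscle (40.0 to 197 CPM in DKO, with Acta1 at 0, and 0.406 to 1.72 in Control) were higher in every DKO library, as were the T and B cell markers Cd3e, Cd3d, Cd79a and Ptprc (71.8 to 132 CPM in DKO and 6.02 to 10.2 in Control). Those of Kupffer cells were lower (35.5 to 60.9 CPM in DKO and 104 to 141 in Control), and those of endothelial, stellate and erythroid cells overlapped. The 8600 genes chosen because they had at most 10 counts in Control, where their level is therefore low by choice, held 0.968 to 2.40 reads per kb in DKO. The part of these differences between libraries in the mitochondrial results was not tested, and the genotype and the makeup of the libraries cannot be told apart. Fewer hepatocytes and less RNA per hepatocyte cannot be told apart either in RNA from whole tissue.

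The share of gene counts that came from the mitochondrial genome spread widely among the DKO libraries and hardly at all among the Control libraries. It was 6.27%, 14.4% and 62.7% in DKO replicates 1, 2 and 3, and 6.34%, 6.57% and 6.47% in Control replicates 1, 2 and 3. DKO replicate 1 lay just under the Control libraries, DKO replicate 2 above them and DKO replicate 3 far above both, so that the groups overlapped. The mean was 27.8% ± 30.5 in DKO and 6.46% ± 0.116 in Control (SD, n = 3 each), and the difference of 21.3 percentage points had a two-sided exact permutation p of 0.4 (adjusted p = 0.453 over 17 library measures). The smallest p that 3 against 3 allows is 0.1. Without DKO replicate 3 the difference was 3.86 percentage points.

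The same counts read against other denominators placed the libraries differently. As a share of all reads, the mitochondrial genome took 0.168%, 0.658% and 2.97% in DKO and 2.22%, 2.24% and 2.16% in Control, so that DKO replicates 1 and 2 lay below all Control libraries and DKO replicate 3 above them. Per 100 counts of 163 abundant nuclear liver genes, chosen for over 30000 counts in Control, there were 540, 68.2 and 2433 mitochondrial counts in DKO and 14.6, 15.3 and 15.1 in Control. These genes were picked on their Control counts, which by itself lowers this ratio in Control, so the values are a description with no test. Counts of the abundant genes themselves were 3594, 110600 and 38448 in DKO and 5288337 to 6875377 in Control. The plot of shares by class shows these readings side by side.

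**Figure D1:**
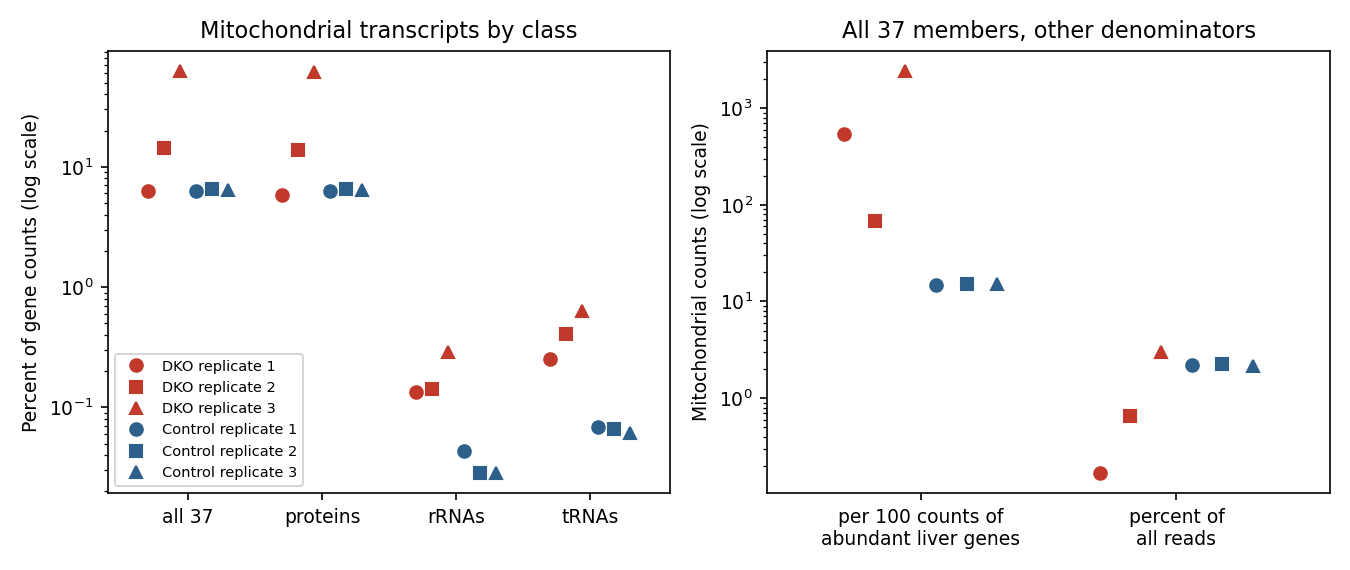
Mitochondrial counts in each library, DKO left of Control, on log axes. Left, percent of gene counts for all 37 genes and by class; right, counts of all 37 genes per 100 counts of abundant liver genes and as percent of all reads. rRNAs and tRNAs take a higher share of gene counts in all 3 DKO libraries (tRNAs 0.253% to 0.629%) than in all 3 Control libraries (0.0617% to 0.0684%), whereas proteins overlap.

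The 13 protein genes made up nearly all mitochondrial counts in both groups. They held 93.8%, 96.2% and 98.5% of them in DKO and 98.2%, 98.6% and 98.6% in Control. The rRNAs held 0.135%, 0.143% and 0.290% of gene counts in DKO and 0.0430%, 0.0284% and 0.0285% in Control. All DKO libraries lay above all Control libraries for the rRNAs, as they did for the tRNAs, which held 0.253%, 0.406% and 0.629% of gene counts in DKO and 0.0684%, 0.0660% and 0.0617% in Control. Each of these differences had an exact permutation p of 0.1, the smallest that can be had, and an adjusted p of 0.425. Within the mitochondrial counts the tRNAs held 4.04%, 2.83% and 1.00% in DKO and 1.08%, 1.00% and 0.954% in Control, and the rRNAs 2.15%, 0.997% and 0.462% in DKO and 0.678%, 0.432% and 0.441% in Control. Both classes thus took their highest shares in DKO replicates 1 and 2, and their shares in DKO replicate 3 lay within the Control range. The 95% Wilson intervals of these class shares in single libraries were at most 0.554 percentage points wide, which covers counting error only.

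Across all genes, 15561 passed the filter on low counts and were tested for DKO against Control, and 31.3% were called higher and 12.8% lower at an adjusted p under 0.05. Of the 37 mitochondrial genes 25 passed the filter, namely all 13 protein genes, both rRNA genes and 10 tRNA genes. Of these 25 genes 6 rose and none fell. The 6 were the tRNAs for tryptophan, alanine, asparagine, isoleucine, threonine and glutamine. Those for asparagine and isoleucine passed the filter only through their DKO libraries, where they were high, which favours a call of higher. Groups did not overlap for 7 of the 25, all with DKO higher, namely the 6 called tRNAs and the large rRNA, mt-Rnr2. Of all genes 34.0% lay apart with DKO higher. The median log2 fold change was 2.56 over the 25 genes and -0.08 over all genes tested. Without DKO replicate 3 it was 0.41 over the mitochondrial genes and -0.59 over all genes. The count of calls depended on the libraries. Without DKO replicate 1, 16 of 27 mitochondrial genes were called higher, where 33.5% of all genes were. Without DKO replicate 2 these were 4 of 27, where 31.1% of all genes were called higher, and without DKO replicate 3 they were 5 of 27 (with 1 lower), where 24.9% were. Without Control replicates 1, 2 or 3, 2 of 23, 2 of 22 and 2 of 23 were called higher, where 30.8%, 29.5% and 29.4% of all genes were. With DESeq2, 13 of 25 were called higher, where 35.3% of all genes were. DESeq2 gave no adjusted p for mt-Atp8, mt-Atp6 and mt-Co3, so these could not be called. TMM, the scaling used, sets the libraries to 593623 to 943688 effective counts in DKO and 9825330 to 13377000 in Control, so a gene with fewer counts in DKO can be called higher.

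**Figure D2:**
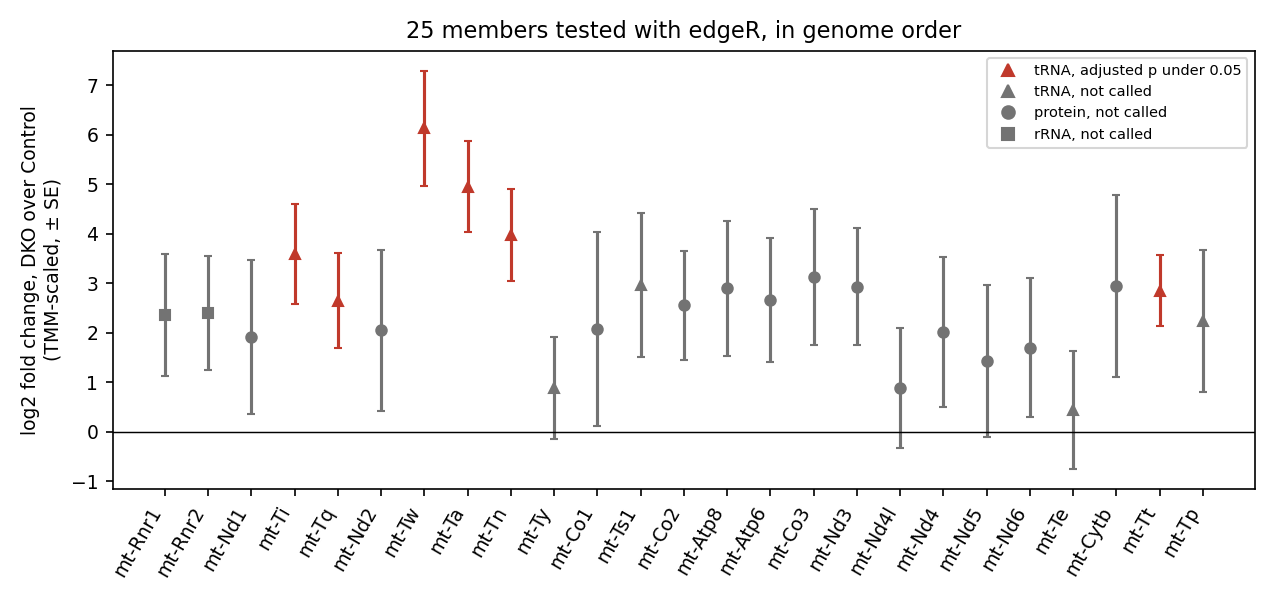
Log2 fold change of DKO over Control for the 25 mitochondrial genes tested, in genome order, with bars of ± 1 SE from edgeR. Red triangles mark the 6 tRNA genes called, from 2.65 (mt-Tq) to 6.13 (mt-Tw); grey symbols mark genes that were not called, whose bars are wide.

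The 6 tRNAs that rose are shown with mt-Ty and mt-Te, a pair whose part of the mitochondrial counts was lower in every DKO library, so that their positions and anticodons can be compared. Sequences were taken from GENCODE M21 transcripts on mm10 and are written 5′ to 3′ as DNA along the tRNA, with the anticodon in capitals.
mt-Tw (tryptophan, chrM:4950-5016, plus strand): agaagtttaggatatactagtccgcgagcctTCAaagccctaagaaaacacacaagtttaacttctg
mt-Ta (alanine, chrM:5018-5086, minus strand): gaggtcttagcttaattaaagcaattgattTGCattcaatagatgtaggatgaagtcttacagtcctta
mt-Tn (asparagine, chrM:5089-5159, minus strand): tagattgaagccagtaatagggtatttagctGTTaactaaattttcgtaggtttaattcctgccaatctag
mt-Ti (isoleucine, chrM:3706-3774, plus strand): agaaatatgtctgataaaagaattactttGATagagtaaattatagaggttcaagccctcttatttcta
mt-Tt (threonine, chrM:15289-15355, plus strand): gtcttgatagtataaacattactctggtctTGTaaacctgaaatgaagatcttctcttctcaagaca
mt-Tq (glutamine, chrM:3772-3842, minus strand): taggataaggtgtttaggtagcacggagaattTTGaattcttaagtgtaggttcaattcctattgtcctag
mt-Ty (tyrosine, chrM:5260-5326, minus strand): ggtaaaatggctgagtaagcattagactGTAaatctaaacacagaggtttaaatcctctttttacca
mt-Te (glutamic acid, chrM:14071-14139, minus strand): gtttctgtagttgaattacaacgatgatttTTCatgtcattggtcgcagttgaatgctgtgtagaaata
The called genes lie in 3 groups, each directly after a protein gene. mt-Ti and mt-Tq follow mt-Nd1, mt-Tw, mt-Ta and mt-Tn follow mt-Nd2, and mt-Tt follows mt-Cytb, the last protein gene. There are 3 on the plus strand and 3 on the minus strand. At 34 of the 36 borders between the 37 genes, neighbours overlap or lie at most 3 bases apart.

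mt-Tw, the tRNA for tryptophan, changed most. Its scaled level was 494, 977 and 221 CPM in DKO and 9.72, 6.52 and 7.84 CPM in Control, from 396, 580 and 209 counts in DKO and 130, 73 and 77 in Control. Every DKO library lay far above every Control library, and in counts too, although the DKO libraries were the smaller ones. The log2 fold change was 6.13 (SE 1.17, adjusted p = 0.00211, edgeR's quasi-likelihood test). Per kb of gene, mt-Tw had 5910, 8657 and 3119 reads in DKO and 1940, 1090 and 1149 in Control, where mt-Cytb had 6254, 18911 and 281427 in DKO and 186259, 170110 and 145181 in Control. In DKO replicate 1 the density over mt-Tw was thus close to that over mt-Cytb, and in the other 5 libraries it was lower.

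mt-Ta, the tRNA for alanine, lies next to mt-Tw on the opposite strand. Its level was 113, 419 and 91.1 CPM in DKO and 6.95, 6.61 and 6.51 CPM in Control (log2 fold change 4.95, SE 0.92, adjusted p = 0.00198, edgeR), with no overlap. mt-Tn, the tRNA for asparagine, had 1.25, 13.5 and 4.24 CPM in DKO and 0.224, 0.268 and 0.611 CPM in Control (3.98, SE 0.94, adjusted p = 0.00724). It rested on 1, 8 and 4 counts in DKO and 3, 3 and 6 in Control, the fewest of the called genes. mt-Ti, the tRNA for isoleucine, had 6.23, 45.5 and 5.30 CPM in DKO and 2.17, 1.52 and 0.814 CPM in Control (3.60, SE 1.02, adjusted p = 0.0179). Both mt-Tn and mt-Ti passed the filter on low counts only through their DKO libraries, so their calls are no independent support for a rise. mt-Tt, the tRNA for threonine, had 9.97, 28.6 and 45.6 CPM in DKO and 3.89, 4.29 and 3.46 CPM in Control (2.85, SE 0.72, adjusted p = 0.0104). mt-Tq, the tRNA for glutamine, had 126, 637 and 419 CPM in DKO and 65.0, 59.5 and 63.1 CPM in Control (2.65, SE 0.96, adjusted p = 0.0472). On this TMM scale DKO replicate 2 was the highest library for 5 of these 6 tRNAs, and DKO replicate 3 for mt-Tt. As a share of mitochondrial counts DKO replicate 1 was the highest for mt-Tw, mt-Ta, mt-Tq and mt-Tt, and DKO replicate 2 for mt-Ti and mt-Tn. Without DKO replicate 2 the log2 fold changes were 5.31 for mt-Tw, 3.77 for mt-Ta, 2.75 for mt-Tn, 1.76 for mt-Ti and 1.96 for mt-Tq, and mt-Tn and mt-Ti lost the call. mt-Tq lost it without DKO replicate 3. Without any 1 Control library mt-Ti, mt-Tt and mt-Tq lost it and mt-Tn was not tested. Together the 6 tRNAs held 76.7%, 59.1% and 7.92% of all mitochondrial tRNA counts in DKO and 10.8%, 9.57% and 10.6% in Control.

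The other tested tRNAs, 4 in all, did not pass the test. mt-Ty, the tRNA for tyrosine, held 0.0103%, 0.00663% and 0.0105% of the mitochondrial counts in DKO and 0.0269%, 0.0257% and 0.0266% in Control. mt-Te, the tRNA for glutamic acid, held 0.0103%, 0.0278% and 0.0288% in DKO and 0.130%, 0.0939% and 0.0781% in Control. Both shares were lower in every DKO library, while their fold changes relative to all genes were small (0.89, adjusted p = 0.489 for mt-Ty; 0.45, adjusted p = 0.769 for mt-Te, edgeR) and turned negative relative to the mitochondrial total. The DKO shares rested on 2, 5 and 98 counts for mt-Ty and 2, 21 and 269 for mt-Te, so the low ones are uncertain. mt-Ts1, a tRNA for serine, held 0.376%, 0.379% and 0.365% of the mitochondrial counts in DKO and 0.238%, 0.239% and 0.194% in Control, a share higher in every DKO library (log2 fold change 2.98 relative to all genes and 0.66 without DKO replicate 3, adjusted p = 0.119). mt-Tp, the tRNA for proline, was the most counted tRNA in Control and held 0.546%, 0.741% and 0.518% in DKO and 0.562%, 0.546% and 0.552% in Control, with overlap (2.24 and 0.26 without DKO replicate 3, adjusted p = 0.215). The ratio of mt-Tw to mt-Ty counts, tRNAs of the same cluster, was 198, 116 and 2.13 in DKO and 0.480, 0.309 and 0.363 in Control. In DKO replicates 1 and 2 it divides by only 2 and 5 counts of mt-Ty, so its size there is poorly measured.

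**Figure D3:**
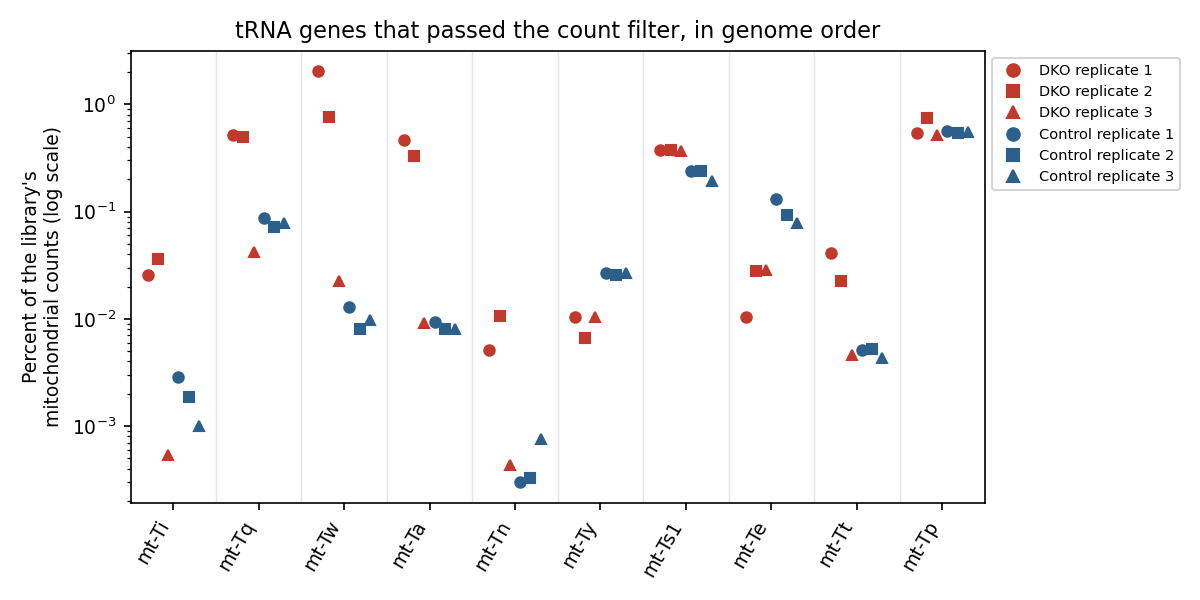
Percent of each library's mitochondrial counts from the 10 tRNA genes that passed the filter, in genome order, DKO left of Control, on a log axis. For mt-Tw all DKO points lie above all Control points, and for mt-Ty and mt-Te below them; for the other called tRNAs DKO replicates 1 and 2 lie above Control and DKO replicate 3 within or below the Control range.

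The other 12 tRNA genes did not pass the filter. Of these, 9 had a count of 0 in all 6 libraries, and mt-Tl1, mt-Tm and mt-Tc had at most 47 counts in any library. In the smallest library, DKO replicate 1, a count of 0 allows a share of up to 0.000969% of gene counts. All 9 genes at 0 are among the 14 on the plus strand, and none is among the 8 on the minus strand. Plus-strand genes held 52.1%, 29.3% and 2.81% of tRNA counts in DKO and 2.06%, 1.68% and 1.64% in Control, so that minus-strand tRNAs dominated in Control and in DKO replicate 3. Of the 5 plus-strand tRNAs that border a minus-strand gene 4 had counts, and of the 9 that border only plus-strand genes 8 had none; the other one, mt-Tl1, had 3 counts over all libraries. A tRNA gene is 59 to 75 bases long, and the sources used here give neither the read length nor the strand setting of the count.

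The rRNAs of the mitochondrial ribosome did not pass the test. mt-Rnr1, the 12S rRNA, had 149, 365 and 2290 counts in DKO and 3532, 2083 and 1736 in Control, which is 186, 615 and 2427 CPM in DKO and 264, 186 and 177 CPM in Control (log2 fold change 2.36, SE 1.24, adjusted p = 0.140, edgeR). mt-Rnr2, the 16S rRNA, had 334, 652 and 2157 CPM in DKO and 246, 168 and 181 CPM in Control (2.40, SE 1.15, adjusted p = 0.113), and its DKO libraries all lay above its Control libraries. Without DKO replicate 3 the log2 fold changes were 0.91 for mt-Rnr1 and 1.29 for mt-Rnr2. Both rRNAs had fewer reads per kb than mt-Cytb in every library. They had 156 to 2398 reads per kb in DKO and 1126 to 3698 in Control.

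None of the 13 protein genes passed the test, and their median log2 fold change was 2.08. The same 7 of them (mt-Co1, mt-Cytb, mt-Nd1, mt-Nd2, mt-Nd4, mt-Nd5 and mt-Nd6) were the most counted mitochondrial genes in every library and held 93.4%, 96.0% and 98.2% of mitochondrial counts in DKO and 98.1%, 98.3% and 98.4% in Control. What differed was their order. mt-Cytb was first in DKO replicates 1 and 2, whereas mt-Co1 was first in DKO replicate 3 and in all 3 Control libraries.

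mt-Cytb, the only complex III subunit coded in mitochondria, held 36.9%, 28.7% and 34.4% of mitochondrial counts in DKO and 21.2%, 21.2% and 20.8% in Control. All 3 DKO libraries lay above all Control libraries, and the share of mt-Cytb among protein counts (39.3%, 29.8% and 34.9% in DKO; 21.5%, 21.5% and 21.1% in Control) had an exact permutation p of 0.1 and an adjusted p of 0.425. Relative to all genes its log2 fold change was 2.94 (SE 1.84, adjusted p = 0.203, edgeR), and 0.41 without DKO replicate 3. mt-Co1, the catalytic subunit of complex IV, held 8.03%, 18.6% and 40.0% of mitochondrial counts in DKO and 39.5%, 42.4% and 43.5% in Control. It was low in DKO replicates 1 and 2 and within the Control range in DKO replicate 3. Its log2 fold change was 2.08 (SE 1.97, adjusted p = 0.393) relative to all genes, -1.42 without DKO replicate 3 and -0.91 relative to the mitochondrial total. The ratio of mt-Co1 to mt-Cytb counts was 0.218, 0.647 and 1.16 in DKO and 1.86, 2.00 and 2.09 in Control, so all DKO libraries lay below all Control libraries.

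Complex I, which takes electrons from NADH, has 7 subunits coded in mitochondria. Their summed share of protein counts was 51.8%, 50.7% and 24.3% in DKO and 38.2%, 35.3% and 34.6% in Control, with DKO replicates 1 and 2 above and DKO replicate 3 below the Control libraries (exact permutation p = 0.4). mt-Nd1 held 17.7%, 13.2% and 6.88% of mitochondrial counts in DKO and 10.4%, 9.59% and 9.82% in Control. mt-Nd2 held 10.4%, 9.61% and 7.46% in DKO and 10.1%, 8.56% and 8.43% in Control. mt-Nd4 held 13.3%, 13.2% and 4.98% in DKO and 8.12%, 7.25% and 6.24% in Control. DKO replicate 3 was the lowest of the 6 libraries for all 3 of these genes. mt-Nd5 held 4.41%, 7.17% and 3.38% in DKO and 6.47%, 6.77% and 7.09% in Control, and mt-Nd6, the only protein gene on the minus strand, held 2.72%, 5.57% and 1.16% in DKO and 2.40%, 2.53% and 2.51% in Control. The ratio of mt-Nd6 to mt-Nd5, which lie end to end on opposite strands, was 0.618, 0.777 and 0.343 in DKO and 0.371, 0.373 and 0.354 in Control. Log2 fold changes relative to all genes were 1.43 to 2.05 for these 5 genes, with adjusted p of 0.284 to 0.449 (edgeR), and that of mt-Nd5 was -0.44 relative to the mitochondrial total. Without DKO replicate 3 they were 0.39 for mt-Nd1, 0.02 for mt-Nd2, 0.78 for mt-Nd4, -0.12 for mt-Nd5 and 0.94 for mt-Nd6.

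**Figure D4:**
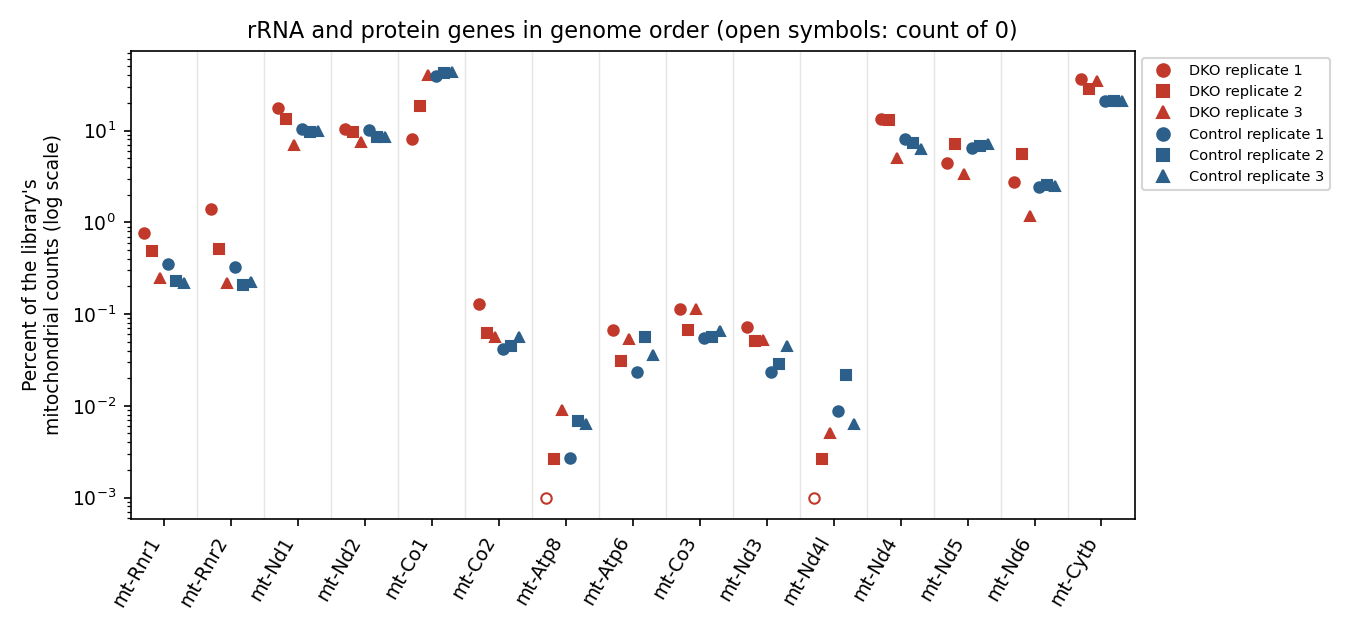
Percent of each library's mitochondrial counts from the 2 rRNA and 13 protein genes, in genome order, DKO left of Control, on a log axis; open symbols mark a count of 0. The 3 Control points of a gene lie close together for the 7 most counted genes, mt-Cytb lies higher in all 3 DKO libraries (28.7% to 36.9%) than in Control (20.8% to 21.2%), and the genes from mt-Co2 to mt-Nd4l lie far below those 7 genes and below the rRNAs.

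The other 6 protein genes held 0.381%, 0.215% and 0.288% of mitochondrial counts in DKO and 0.155%, 0.214% and 0.215% in Control. They are mt-Co2 and mt-Co3 of complex IV, mt-Atp8 and mt-Atp6 of the ATP synthase, and mt-Nd3 and mt-Nd4l of complex I, and all lie in 1 stretch of the genome between mt-Co1 and mt-Nd4. mt-Co3 had 22, 50 and 1050 counts in DKO and 553, 513 and 521 in Control, and the largest log2 fold change of the 6 (3.13, SE 1.37, adjusted p = 0.0889, edgeR). mt-Co2 had 25, 47 and 524 counts in DKO and 419, 412 and 445 in Control (2.56, SE 1.09, adjusted p = 0.0836). mt-Nd3 had 14, 38 and 483 counts in DKO and 235, 265 and 357 in Control (2.94, SE 1.18, adjusted p = 0.0690). For these 3 genes the share of mitochondrial counts was higher in every DKO library, but by small margins. The lowest DKO and highest Control shares were 0.0663% and 0.0653% for mt-Co3, 0.0560% and 0.0558% for mt-Co2, and 0.0504% and 0.0448% for mt-Nd3. Most of the DKO counts of these genes came from DKO replicate 3, and nuclear copies make the counts uncertain, as given below. mt-Atp6 had 13, 23 and 502 counts in DKO and 234, 512 and 288 in Control (2.67, adjusted p = 0.106), mt-Atp8 had 0, 2 and 85 in DKO and 27, 62 and 51 in Control (2.90, adjusted p = 0.108), and mt-Nd4l had 0, 2 and 47 in DKO and 88, 200 and 51 in Control (0.88, adjusted p = 0.560). Without DKO replicate 3 the log2 fold changes were 0.22 for mt-Co3, 0.51 for mt-Co2, 0.61 for mt-Nd3, -0.21 for mt-Atp6, -1.52 for mt-Atp8 and -2.74 for mt-Nd4l. Relative to the mitochondrial total those of mt-Atp8 and mt-Nd4l were -0.10 and -1.92. The share of mt-Nd4l was lower in every DKO library, at 0% to 0.00502%, against 0.00640% to 0.0218% in Control. It rests on few counts, which its nuclear copy makes uncertain.

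With libraries scaled to the mitochondrial total instead of all genes, the comparison asks which genes changed within the mitochondrial genome. Among the mitochondrial genes 3 tRNAs were called higher and none lower, where 24.2% of all genes were called higher and 10.1% lower on this scale. These were mt-Tw (log2 fold change 6.53, adjusted p = 0.00275, edgeR), mt-Ta (4.99, adjusted p = 0.0126) and mt-Tn (3.37, adjusted p = 0.0296), neighbours in 1 cluster. Of these, mt-Tn had few counts and passed the filter only through its DKO libraries. The log2 shares of the 25 tested genes were closely alike among Control libraries, with Pearson's r of 0.994 to 0.995. This r was 0.810 to 0.847 between DKO replicate 1 and the Control libraries, 0.875 to 0.904 for DKO replicate 2 and 0.979 to 0.988 for DKO replicate 3. These correlations are across genes of the same genome, which are not independent, and describe the libraries only. DKO replicate 3, with the highest mitochondrial share, was thus the DKO library whose mitochondrial profile was nearest to Control.

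The low counts of the protein genes between mt-Co1 and mt-Nd4 stand beside a property of their sequence. Of the tRNA genes in this stretch, mt-Ts1 was well counted, at 22464 to 34652 reads per kb in Control. The others, mt-Td, mt-Tk, mt-Tg and mt-Tr, had no counts. A copy of this stretch lies in the nuclear genome, where 7 annotated pseudogenes on the minus strand of chromosome 1, from 24611535 to 24616197 on mm10, follow the order of the mitochondrial genes. Over the aligned bases the copies of mt-Co2 (681 of 681), mt-Atp6 (678 of 678), mt-Co3 (783 of 783), mt-Nd4l (294 of 294) and mt-Nd4 (876 of 876) are identical to the mitochondrial genes, that of mt-Nd3 differs at 1 base (T3C, counted from the gene's first base) and that of the end of mt-Co1 at 6 of 492. The start of mt-Co2 and of its copy Gm28661 shows such an identical stretch, and the start of the copied end of mt-Co1 and of its copy Gm29216 shows the edge of the copy, with differing bases in capitals (T1056A, C1057T, A1059G, A1060G, C1062A and A1066T, mitochondrial base first). All are written 5′ to 3′ along the gene, from GENCODE M21 transcripts on mm10.
mt-Co2 (chrM:7013-7102, plus strand): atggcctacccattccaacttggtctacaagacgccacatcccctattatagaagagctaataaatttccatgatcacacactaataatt
Gm28661 (chr1:24615476-24615565, minus strand): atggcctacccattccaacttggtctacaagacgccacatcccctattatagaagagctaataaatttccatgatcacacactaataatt
mt-Co1 (chrM:6381-6470, plus strand): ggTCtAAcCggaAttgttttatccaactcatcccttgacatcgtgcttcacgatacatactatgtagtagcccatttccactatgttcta
Gm29216 (chr1:24616108-24616197, minus strand): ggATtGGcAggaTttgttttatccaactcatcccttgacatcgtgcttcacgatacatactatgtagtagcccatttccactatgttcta
The count tables hold a separate row for reads that align to more than 1 place, and these stay out of both the gene and its copy.

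Of all windows of 75 bases, over 90% were found in another annotated transcript for mt-Co2, mt-Atp6, mt-Co3, mt-Nd3 and mt-Nd4l. These 5 genes had 0 to 1388 reads per kb in DKO and 172 to 1026 in Control. The 5 protein genes with under 10% of such windows other than mt-Atp8 (mt-Nd1, mt-Nd2, mt-Nd5, mt-Nd6 and mt-Cytb) had 469 to 281427 reads per kb in DKO and 31011 to 186259 in Control, and the ranges of these gene groups did not overlap in Control. mt-Co1 and mt-Nd4 shared 39.8% and 61.5% of their windows and still had high densities, at 1009 to 242033 and 1876 to 33795 reads per kb in DKO and 224419 to 257107 and 36091 to 59319 in Control. mt-Atp8 is the exception among the protein genes of this stretch, since its windows matched no other annotated transcript. Its density was as low as that of the neighbouring protein genes (0 to 417 reads per kb in DKO and 132 to 304 in Control). It lies where the annotation leaves 233 bases between the copies Gm28661 and Gm10925, against 230 bases between mt-Co2 and mt-Atp6. The sequence of that gap was not analysed here. The rRNAs, which share no such window, also had low densities.

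**Figure D5:**
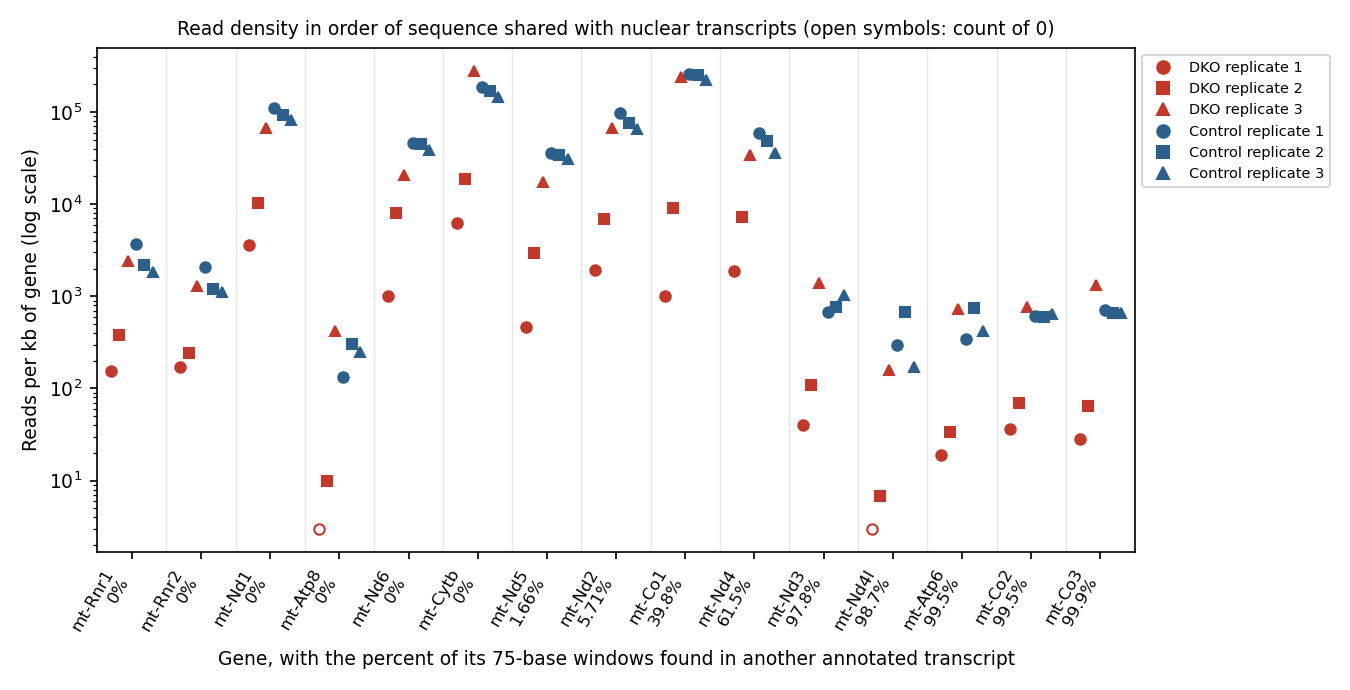
Reads per kb of the 2 rRNA and 13 protein genes, on a log axis, in order of the percent of their 75-base windows found in another annotated transcript (printed under each name), DKO left of Control; open symbols mark a count of 0. The 5 genes with over 90% shared windows lie at 172 to 1026 reads per kb in Control, while mt-Atp8 and the rRNAs lie low with 0% shared.

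Reads were also counted to the copies. The chromosome 1 copy took 70.2% to 76.8% of the counts of the pair for mt-Co2, 67.6% to 79.2% for mt-Co3 and 59.4% to 83.4% for mt-Atp6 over the 6 libraries, and it took 33.5% to 48.6% for mt-Nd3 and 41.3% to 100% for mt-Nd4l. Counts of these 5 genes are therefore uncertain. For mt-Co1 the chromosome 1 copy took 0.200% to 4.30% and for mt-Nd4 0.0387% to 0.621%. Counts of the 7 chromosome 1 copies summed to 207, 678 and 9674 in DKO and 5506, 6569 and 5932 in Control. That is 1.07%, 0.899% and 1.03% of the mitochondrial counts in DKO and 0.547%, 0.716% and 0.744% in Control. Other annotated copies stay out of these values. Among them, Gm13340 on chromosome 2, a copy of mt-Co1, had 17, 54 and 979 counts in DKO and 1029, 1049 and 1056 in Control. Gm13341, a copy of mt-Co2 there, had 9, 65 and 270 in DKO and 257, 287 and 197 in Control. Reads that align to more than 1 place were 9.90%, 14.4% and 28.6% of all reads in DKO and 18.1%, 19.3% and 20.2% in Control. DKO replicate 3, the library with the highest mitochondrial share, was the highest here too.

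Among nuclear genes that copy, transcribe, cut and translate the mitochondrial genome, more fell than rose. Of 72 listed genes 67 were tested, and relative to all genes 17 fell and 2 rose, where 12.8% of all genes were called lower and 31.3% higher. Their median log2 fold change was -1.83, against -0.08 over all genes. Relative to the counts of abundant liver genes 24 of the 67 were called higher and 1 lower, where 61.6% of all genes were called higher and 0.546% lower. The median log2 fold change over all genes on this scale was 4.39, so positive values given on it below follow from the scale. Of 69 listed genes tested, 34 were called lower without DKO replicate 1 (3685 of all 16778 genes), 39 without DKO replicate 2 (4497 of all 16847) and 17 without DKO replicate 3 (1893 of all 15836). Without Control replicates 1, 2 and 3 these were 5 of 60, 5 of 58 and 4 of 59, where 4.05%, 4.28% and 4.13% of all genes were called lower. Polg, Tfb2m, Trnt1 and Ptcd3 lost the call without any 1 Control library, Mrrf without Control replicate 1 or 3, and Polg also without DKO replicate 3. Of the genes not called, Twnk was called lower without any 1 DKO library, Polrmt without DKO replicate 1 or 3, and Tfam and Lrpprc without DKO replicate 2.

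Among 13 genes of mtDNA copying and packaging 4 fell and 1 rose, where 12.8% of all genes were called lower and 31.3% higher. Top1mt, the mitochondrial topoisomerase, had 0, 1 and 1 counts in DKO and 322, 221 and 146 in Control (log2 fold change -4.47, SE 0.98, adjusted p = 0.00470, edgeR). Dguok, which makes purine nucleotides for mtDNA, had 0, 1 and 1 counts in DKO and 197, 150 and 131 in Control (-3.97, adjusted p = 0.00912), and Polg, the mtDNA polymerase, had 1, 14 and 3 in DKO and 730, 555 and 595 in Control (-2.65, adjusted p = 0.0400). Tfam, which packages mtDNA and starts its transcription, had 13, 41 and 20 counts in DKO and 691, 599 and 489 in Control, and did not pass (-0.56, adjusted p = 0.490). Twnk, the mtDNA helicase, did not pass either (-1.66, adjusted p = 0.0609). Polg, Tfam and Twnk were positive relative to abundant liver genes (0.27, 3.84 and 2.74). The gene that rose was Primpol, a primase and polymerase, with 38, 14 and 27 counts in DKO and 89, 63 and 72 in Control (2.34, adjusted p = 0.0111), named after its value was seen. It lost the call without any 1 Control library (adjusted p = 0.0595 to 0.0852).

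Of 9 tested genes of mitochondrial transcription 1 fell, which is near the 12.8% of all genes called lower. The gene that fell was Tfb2m, a transcription factor of the mitochondrial promoters. It had 0, 2 and 9 counts in DKO and 410, 355 and 287 in Control (-2.76, adjusted p = 0.0349, edgeR). Polrmt, the mitochondrial RNA polymerase, had 0, 0 and 11 counts in DKO and 354, 331 and 253 in Control (-2.67, adjusted p = 0.0732), and both were positive relative to abundant liver genes (0.83 for Tfb2m and 1.15 for Polrmt). Of 21 genes that cut or modify mitochondrial transcripts 6 fell and none rose, where 12.8% of all genes were called lower and 31.3% higher. Trnt1, which adds the CCA end to tRNAs, had 0, 0 and 6 counts in DKO and 395, 378 and 319 in Control (-3.73, adjusted p = 0.0167). Mrm3, which methylates the large rRNA, had no counts in DKO and 161, 147 and 146 in Control (adjusted p = 0.00443). Taken at 3 counts over the DKO group, it was at least 10.3-fold lower, or at least 1.27-fold lower relative to abundant liver genes.

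Of 13 genes of transcript stability and decay 3 fell and 1 rose, where 12.8% of all genes were called lower and 31.3% higher. Fastkd5, needed for cutting messages not flanked by tRNAs, had 0, 0 and 1 counts in DKO and 101, 126 and 102 in Control (-4.47, adjusted p = 0.0102, edgeR), and Ptcd3, an RNA-binding protein of the small ribosomal subunit, had 0, 3 and 11 in DKO and 512, 403 and 386 in Control (-2.72, adjusted p = 0.0361). Lrpprc, which keeps the messages stable, had 25, 59 and 39 counts in DKO and 1909, 1479 and 1209 in Control, and did not pass (-1.22, adjusted p = 0.174). Ptcd3 and Lrpprc were positive relative to abundant liver genes (0.84 and 3.45). The gene that rose, named after its value was seen, was Fastkd3, with 38, 3 and 21 counts in DKO and 60, 64 and 50 in Control (2.30, adjusted p = 0.0416). It was called without DKO replicate 2 but not when any other library was left out. Of 11 translation factors 3 fell and none rose, beside the same shares of all genes. Gfm1, an elongation factor, had 6 counts in each DKO library and 1015, 1016 and 749 in Control (-3.36, SE 0.59, adjusted p = 0.00140), and was positive (1.67) relative to abundant liver genes. Mrrf, the ribosome recycling factor, had 0, 0 and 6 counts in DKO and 467, 389 and 403 in Control (-3.93, adjusted p = 0.0126).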

How the data were processed

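RNA was extracted from liver, and a company made and sequenced the libraries, per the labels' protocols. The deposited tables give unnormalized counts of reads for each Ensembl gene ID. STAR, HTSeq and mm10 are named in the submitters' processing notes; the library kit, read length, strand setting, annotation release and tool versions are not stated in the sources used here. Without the strand setting, reads of a gene and of an overlapping or antisense gene cannot be told apart. Libraries held 11462053 to 45427473 reads. The 5 rows that name no gene held 95.3% to 97.3% of reads in DKO and 65.1% to 66.7% in Control and were left out of library totals and tests.

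Members were found by symbol in a gene name reference that matched 42462 IDs. GENCODE M21, also on mm10, gave positions and sequences. Shared sequence is the percent of a gene's 75-base windows found on either strand of another transcript. Wilson 95% intervals cover counting error only, since reads carry no molecular identifiers.

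The test was edgeR 4.0.16 in R 4.3.3 (quasi-likelihood, robust, TMM, filterByExpr by group, no covariate) on all genes passing the filter, with two-sided Benjamini-Hochberg adjusted p under 0.05. SE is the log2 fold change over the square root of F; CPM of single genes are TMM-scaled. The script was tested on simulated data. Library measures had two-sided exact permutation tests over 20 arrangements (SciPy 1.17.1), adjusted over 17 measures, 3 of them added later. Profile correlations added 0.001 percent to shares. For a gene with no counts in a group, 3 counts over the group served as floor. Biological variation (edgeR, as a coefficient) was 63.9% with all 6 libraries and 18.8% within Control.

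Alternatives were DESeq2 1.42.0, limma-voom (limma 3.58.1), other scalings, filters and denominators, an adjusted p of 0.01, leaving out each library and a replicate block. Named are all protein and rRNA genes, tRNAs passing the filter and, of each list of nuclear genes, up to 2 called genes with the smallest adjusted p, beside Tfam, Polrmt, Lrpprc, Twnk and Polg. Of 72 listed nuclear genes 69 were found. The sum of 1 marker list leaves out 1 listed gene, not reported here. Members and lists were chosen with earlier results of these data known. Groups came from the titles, and every pair of libraries differed beyond sampling noise.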

Additional observations from a re-analysis of the deposited data

Results flagged for a closer look

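Reads that align to more than 1 place were 28.6% of all reads in DKO replicate 3, a value outside the gene counts and above the 18.1% to 20.2% of the Control libraries. In DKO replicates 1 and 2 they were 9.90% and 14.4%, below every Control library.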

How the results depend on the processing

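The count of mitochondrial genes called, 6, became 13 with DESeq2, 25 relative to abundant liver genes, 11 with no filter on low counts, 3 relative to the mitochondrial total, 3 with the replicate block, 3 at an adjusted p of 0.01, and 2 to 16 when 1 library was left out. With other settings tried it was 5 to 9, where 29.6% to 34.5% of all genes were called higher. Of the 6 tRNAs, mt-Ti, mt-Tq and mt-Tt lost the call relative to the mitochondrial total, with the replicate block and without any 1 Control library, where mt-Tn was not tested, mt-Tq also with limma-voom, with a filter of 1 CPM and without DKO replicate 3, and mt-Ti and mt-Tn without DKO replicate 2. The nuclear list's 19 calls became 43 with DESeq2, 35 with no filter and 4 to 41 when 1 library was left out. The 19 were 2 higher and 17 lower, where 31.3% of all genes were called higher and 12.8% lower. Of the 43 with DESeq2, 5 were higher and the rest lower, where 35.3% of all genes were called higher and 30.7% lower. Of the 35 with no filter, 2 were higher and 33 lower, where 15.4% of all genes were called lower. Primpol and Fastkd3, which rose, lost the call with the replicate block and relative to the mitochondrial total, and Fastkd3 also with limma-voom. The share difference of 21.3 percentage points was -0.936 as percent of all reads, and 3.86 to 32.1 when 1 library was left out. Log2 fold changes that turned round were, with limma-voom, mt-Ty -0.59, mt-Co1 -0.40, mt-Nd4l -0.82 and mt-Te -1.25; relative to the mitochondrial total, mt-Ty -1.54, mt-Co1 -0.91, mt-Atp8 -0.10, mt-Nd4l -1.92, mt-Nd5 -0.44 and mt-Te -2.13; with the replicate block, mt-Ty -0.57, mt-Co1 -0.44, mt-Nd4l -0.81 and mt-Te -1.13; and with no filter, mt-Te -0.069. When 1 library was left out they ranged from -2.04 to 1.32 for mt-Ty, -1.42 to 2.50 for mt-Co1, -1.52 to 3.36 for mt-Atp8, -0.21 to 3.06 for mt-Atp6, -2.74 to 1.35 for mt-Nd4l, -0.12 to 1.83 for mt-Nd5 and -2.14 to 0.88 for mt-Te, the lowest without DKO replicate 3, where mt-Ty was called lower (adjusted p = 0.0431, edgeR). Relative to abundant liver genes, a scale that moved all genes by a median of 4.16, Tfam 3.84, Twnk 2.74, Polg 0.27, Polrmt 1.15, Tfb2m 0.83, Lrpprc 3.45, Ptcd3 0.84 and Gfm1 1.67 turned positive. Upper-quartile factors, no factors, nuclear scaling and the mitochondrial total moved them by 0.26, 0.46, 0.24 and -0.46. The causes were not tested. Replicate numbers did not pair the libraries (correlation of deviations 0.107, 0.0752 and -0.00793), and the block gave the share difference an exact p of 0.5. Gene counts of 309731 to 1491237 in DKO limit what low tRNAs can show.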
